A study of Mus musculus with 10 samples.

Results

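The TET, FTO and ALKBH genes encode iron-dependent dioxygenases that use α-ketoglutarate (α-KG) as a co-substrate, many of them to oxidise methyl groups on DNA or RNA. All 9 genes of this group that were looked for by symbol, Tet1, Tet2, Tet3, Fto, Alkbh1, Alkbh2, Alkbh3, Alkbh5 and Alkbh8, were found among the 55367 genes of the deposited table, and all 9 passed the filter on low counts that left 15126 genes for testing. Transcripts were measured by RNA sequencing of bone marrow cells, labelled BMMC, from 5 libraries of mice given 1% α-KG in the drinking water and 5 libraries of mice given regular water. The sources used here give no strain, genotype, age, sex or duration of treatment. Libraries are named α-KG 1 to 5 and water 1 to 5, and a shared number pairs nothing. Nothing in the labels ties a library to a single animal, and p-values therefore measure the spread between libraries, which may be technical.

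TET enzymes convert 5-methylcytosine to 5-hydroxymethylcytosine and further oxidised forms, which opens a route to the loss of DNA methylation. In marrow, TET2 is known as a regulator of stem cell and myeloid cell numbers, and its gene is often mutated in human myeloid disease. FTO and ALKBH5 remove the methyl group of N6-methyladenosine (m6A) from RNA. ALKBH2 and ALKBH3 repair alkylated bases in DNA, ALKBH1 acts on transfer RNA (tRNA), and ALKBH8 modifies the wobble uridine of certain tRNAs.

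Library totals ran from 14291364 to 21489380 counts in α-KG and from 16938450 to 22490118 in water. Protein-coding genes took 37.9% to 50.1% of the counts in α-KG and 42.2% to 72.2% in water. The small cytoplasmic RNA genes Rn7s1 and Rn7s2 together took 24.0% to 31.0% in α-KG and 7.56% to 24.2% in water, and the part of this difference in the members' values was not tested. Marker genes of neutrophils, erythroid cells and B cells, which marrow contains, were detected. Of those in the table, 12 of 12, 17 of 17 and 13 of 14 passed the filter. Their presence alone does not establish the tissue. Xist, expressed from an inactive X chromosome, stood at 258 to 785 CPM and the Y-linked gene Ddx3y at 13.5 to 28.0 CPM over the 10 libraries, so both occurred in every library. CPM are counts per 1000000 counts of a library scaled by TMM, a factor that evens out differences in composition.

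The window from 250 bases before to 50 bases after the RefSeq transcription start is shown for Tet2, Fto and Alkbh8, the members with the smallest p-values below, because CG dinucleotides (CpG, in capitals) are the main sites at which DNA is methylated and TET enzymes act. Positions are on build GRCm38.p6, and each line reads 5′ to 3′ on the gene's own strand. The Tet2 window is chr3:133544341-133544640 (minus strand), the Fto window chr8:91313275-91313574 (plus strand) and the Alkbh8 window chr9:3334981-3335280 (plus strand).
Tet2: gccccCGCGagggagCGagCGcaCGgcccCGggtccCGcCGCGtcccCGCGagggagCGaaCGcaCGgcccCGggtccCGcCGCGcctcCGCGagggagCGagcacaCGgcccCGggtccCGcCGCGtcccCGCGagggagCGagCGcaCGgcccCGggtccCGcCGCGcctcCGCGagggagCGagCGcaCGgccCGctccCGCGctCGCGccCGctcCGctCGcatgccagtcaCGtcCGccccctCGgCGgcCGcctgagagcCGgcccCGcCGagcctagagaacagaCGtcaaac
Fto: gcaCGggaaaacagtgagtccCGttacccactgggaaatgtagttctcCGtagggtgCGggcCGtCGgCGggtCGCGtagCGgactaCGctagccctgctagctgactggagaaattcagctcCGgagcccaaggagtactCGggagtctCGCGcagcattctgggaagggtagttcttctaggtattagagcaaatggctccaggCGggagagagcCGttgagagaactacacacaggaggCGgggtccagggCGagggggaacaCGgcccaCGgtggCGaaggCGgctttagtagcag
Alkbh8: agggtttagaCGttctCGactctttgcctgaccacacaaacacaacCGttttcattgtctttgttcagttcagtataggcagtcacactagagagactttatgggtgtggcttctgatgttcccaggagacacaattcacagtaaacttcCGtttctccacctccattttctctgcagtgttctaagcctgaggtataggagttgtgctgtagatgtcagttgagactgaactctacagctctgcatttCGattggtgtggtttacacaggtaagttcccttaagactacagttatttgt

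The Tet2 window held 57 CG dinucleotides, and 0.152% of the 32851 windows of the same length in the RefSeq table held as many or more. It also repeated itself: 67.8% of its bases equalled the base 42 positions further on, a level of self-likeness, at the best offset of 10 to 150 bases of each window, that 0.119% of all windows reached. The Fto window held 23 CG dinucleotides and the Alkbh8 window 5, against a median of 7 over all windows, of which 94.6% held at least 1. The windows of the other 6 members held 13 to 22. GENCODE places the start of Alkbh8 at 3335140, inside the window shown, and the outermost start of Tet2 at 133545139, outside the window shown, so both counts depend on which start is used. DNA methylation was not measured, and these counts describe sequence only.

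No member passed the test of α-KG against water, with 0 of 9 genes called at an adjusted p under 0.05, beside 2.73% of all genes tested (edgeR quasi-likelihood test, Benjamini-Hochberg adjustment over 15126 genes). DESeq2 also called 0 of 9, where its background was 10.4% of 15951 genes. At an unadjusted p under 0.05 there were 3 of 9 members, Tet2, Fto and Alkbh8, beside 27.8% of all genes tested. The groups overlapped for each of the 9, while 5.65% of all genes tested had groups that did not overlap. The median log2 fold change was 0.05 over the members and 0.02 over all genes tested, with 5 members above 0 and 4 below, where 51.7% of all genes tested were above 0.

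The members' count was 1 without water 3 (Tet2) and 2 without α-KG 2 (Tet2 and Alkbh8). The count over all genes, 413, was 0 when water 1, 2 or 4 or α-KG 4 was left out. Leaving out α-KG 1, 2, 3 and 5 gave 139, 2683, 37 and 149 genes, and leaving out water 3 and 5 gave 632 and 72. In simulations with 200 of 15126 genes changed, drawn at the depth and spread of these libraries, the same test called 11.9% of genes changed 1.5-fold and 48.8% of genes changed 2-fold. Each gene was drawn independently, so shifts shared by many genes of a library were not simulated, and these rates need not hold here.

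**Figure D1:**
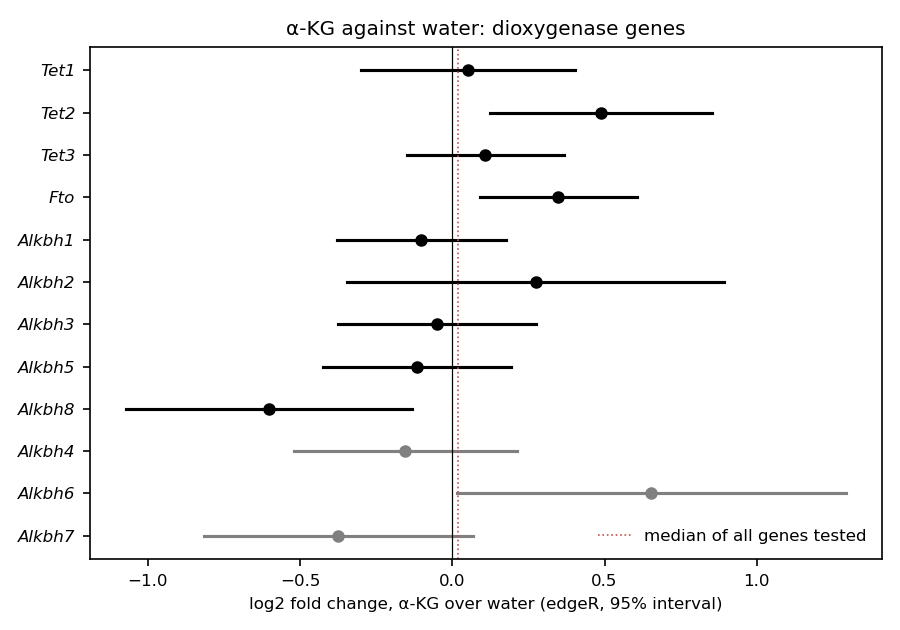
Log2 fold changes of α-KG over water from edgeR, with 95% intervals, for the 9 members (black) and for Alkbh4, Alkbh6 and Alkbh7 (grey); the dotted line marks the median of all genes tested, 0.02. Among the members, the intervals of Tet2, Fto and Alkbh8 lie to 1 side of 0, and none of the 9 passed adjustment over all genes.

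Among the TET genes, Tet2 (chromosome 3, 133463679 to 133545139, minus strand) had the highest fold change. It stood at 64.6, 39.1, 62.3, 56.8 and 51.2 CPM in α-KG 1 to 5, against 39.0, 33.3, 53.0, 36.8 and 33.2 CPM in water 1 to 5. Of the α-KG libraries, 3 lay above every water library, while α-KG 2 stood among the water values and water 3 among the α-KG values. The means were 54.8 ± 10.2 CPM in α-KG and 39.1 ± 8.18 in water (SD, n = 5 each), a log2 fold change of 0.49 ± 0.17 SE, with a 95% interval of 0.12 to 0.85 and an adjusted p of 0.102 (edgeR). The call turned on single libraries, with a log2 fold change of 0.63 without water 3 (edgeR adjusted p = 0.0483) and 0.59 without α-KG 2 (edgeR adjusted p = 0.0274). Those fits called 632 and 2683 genes, beside 413 with all libraries. With any other library left out Tet2 did not pass. Its edgeR adjusted p was then 0.107 (without α-KG 5) to 0.215 (without α-KG 3). On the opposite strand, the antisense gene Gm42567 shares 43 exonic bases with Tet2, and whether reads were counted by strand is not stated in the labels.

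Tet3 (chromosome 6, 83362373 to 83459084, minus strand), which encodes the TET enzyme best known from the early embryo, was the TET gene with the most counts and the one that varied least. It stood at 151, 159, 148, 140 and 159 CPM in α-KG 1 to 5, against 139, 145, 139, 139 and 140 CPM in water 1 to 5. The water values lay within a narrow band, and 4 α-KG libraries lay above all of them. The means were 151 ± 8.09 CPM in α-KG and 140 ± 2.70 in water (SD, n = 5 each), a log2 fold change of 0.11 ± 0.12 SE with a 95% interval of -0.15 to 0.37 and an adjusted p of 0.561 (edgeR).

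Tet1 (chromosome 10, 62804570 to 62908996, minus strand), known from embryonic stem and germ cells, was scarce, with 34 to 112 deposited counts per library. Its means were 3.33 ± 0.404 CPM in α-KG and 3.22 ± 0.436 in water (SD, n = 5 each), and its log2 fold change was 0.05 ± 0.16 SE with a 95% interval of -0.30 to 0.40 (edgeR adjusted p = 0.851). Within a library, Tet3 made up 68.9% to 78.9% of the summed TET level per exon length in α-KG and 71.2% to 80.3% in water. Tet2 made up 19.2% to 29.2% in α-KG and 18.2% to 26.8% in water, and Tet1 made up 1.39% to 1.90% in α-KG and 1.48% to 2.09% in water.

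**Figure D2:**
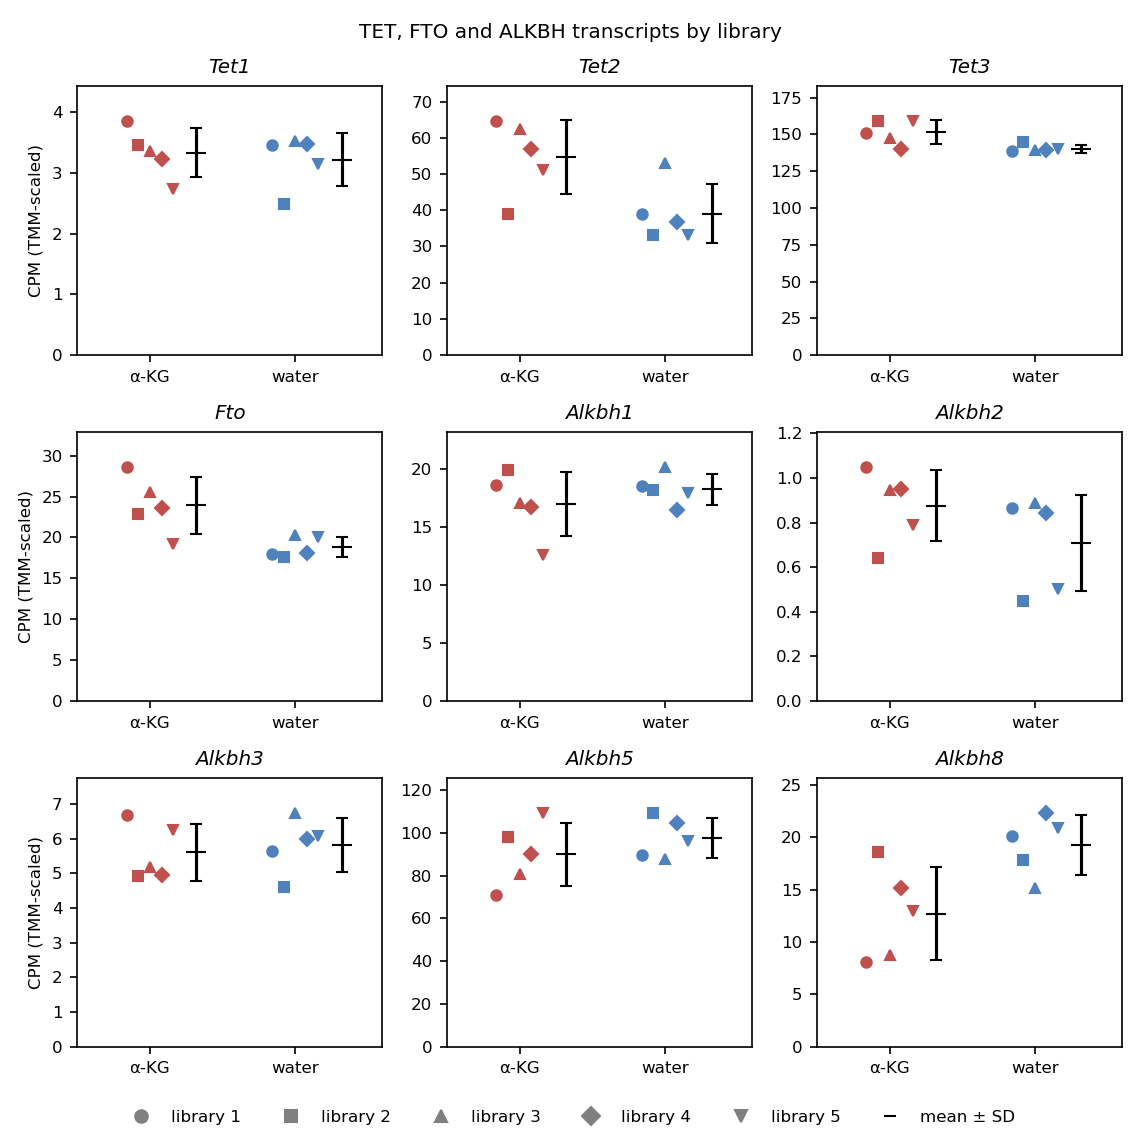
CPM of each member in the 5 α-KG (red) and 5 water (blue) libraries, with a symbol for each library and the mean ± SD beside them; axes start at 0. The groups overlap in all 9 panels, with Tet2 in α-KG 2 at 39.1 and in water 3 at 53.0 CPM.

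Neither of the RNA demethylase genes Fto and Alkbh5 passed the test, with log2 fold changes of 0.35 and -0.12 (edgeR). Fto (chromosome 8, 91313525 to 91668439, plus strand), whose enzyme acts on m6A and on the related cap-adjacent mark m6Am, stood at 28.6, 22.8, 25.5, 23.6 and 19.1 CPM in α-KG 1 to 5, against 18.0, 17.6, 20.3, 18.1 and 20.1 CPM in water 1 to 5. The 4 α-KG libraries other than α-KG 5 lay above every water library. The means were 23.9 ± 3.49 CPM in α-KG and 18.8 ± 1.27 in water (SD, n = 5 each), a log2 fold change of 0.35 ± 0.12 SE with a 95% interval of 0.09 to 0.61 and an adjusted p of 0.100 (edgeR). Gm45427 and the antisense gene 4831440D22Rik, both on the opposite strand, share 304 and 144 exonic bases with Fto.

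Alkbh5 (chromosome 11, 60536381 to 60558512, plus strand), the gene of the nuclear m6A demethylase, stood at 71.0, 98.2, 80.8, 90.0 and 109 CPM in α-KG 1 to 5, against 89.4, 109, 87.8, 104 and 96.4 CPM in water 1 to 5. Its α-KG values spread on both sides of the water values, with α-KG 1 and α-KG 3 lower than every water library and α-KG 5 slightly higher. The means were 89.9 ± 14.9 CPM in α-KG and 97.4 ± 9.28 in water (SD, n = 5 each), a log2 fold change of -0.12 ± 0.14 SE with a 95% interval of -0.43 to 0.19 and an adjusted p of 0.600 (edgeR). The α-KG library lowest in Alkbh5, α-KG 1, was the highest in Fto, and the one highest in Alkbh5, α-KG 5, was the lowest in Fto.

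Of the members that act on tRNA, Alkbh8 (chromosome 9, 3335140 to 3391154, plus strand) had the lowest fold change of the 9. It stood at 8.09, 18.6, 8.74, 15.2 and 12.95 CPM in α-KG 1 to 5, against 20.2, 17.8, 15.1, 22.4 and 20.9 CPM in water 1 to 5. The values of α-KG 1, 3 and 5 lay below every water library, and those of α-KG 2 and 4 lay among the water values. The means were 12.7 ± 4.42 CPM in α-KG and 19.3 ± 2.83 in water (SD, n = 5 each), a log2 fold change of -0.60 ± 0.22 SE with a 95% interval of -1.07 to -0.13 and an adjusted p of 0.109 (edgeR). Without α-KG 2 the log2 fold change was -0.79 and passed (edgeR adjusted p = 0.0245). That fit called 2683 genes, beside 413 with all libraries. With any other library left out Alkbh8 did not pass. Its edgeR adjusted p was then 0.0856 (without water 3) to 0.233 (without α-KG 3).

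Alkbh1 (chromosome 12, 87425840 to 87444017, minus strand) stood at 12.6 to 19.9 CPM in α-KG, with a median of 17.1, and at 16.5 to 20.1 CPM in water, with a median of 18.2. Only α-KG 5 lay below the water range. Its log2 fold change was -0.10 ± 0.13 SE with a 95% interval of -0.38 to 0.18 (edgeR adjusted p = 0.611). The gene shares 122 exonic bases with Slirp on the opposite strand.

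Of Alkbh2 and Alkbh3, which encode the DNA repair enzymes, Alkbh2 was at a low level. Alkbh2 (chromosome 5, 114123926 to 114128218, minus strand) had 7 to 27.67 deposited counts per library and stood at 0.642 to 1.05 CPM in α-KG and 0.447 to 0.888 CPM in water. Its log2 fold change of 0.27 ± 0.29 SE had the widest 95% interval of the 9, from -0.35 to 0.89 (edgeR adjusted p = 0.539), and 329 of its 1115 exonic bases are shared with Usp30 on the opposite strand. Its deposited counts were not whole numbers in 9 of 10 libraries, which was so in 4 libraries for Fto, in 1 for Alkbh8 and in 0 for the other members. Alkbh3 (chromosome 2, 93980550 to 94010807, minus strand) stood at 4.94 to 6.69 CPM in α-KG and 4.62 to 6.75 CPM in water, with a log2 fold change of -0.05 ± 0.15 SE and a 95% interval of -0.38 to 0.27 (edgeR adjusted p = 0.842). It shares 172 exonic bases with Gm27027 on the same strand and 85 with Alkbh3os1 on the opposite strand.

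Between genes, levels were compared as CPM per kb of exon, and the order was Alkbh5 first and Tet3 second in both groups. Alkbh5 averaged 15.01 ± 2.49 CPM per kb in α-KG and 16.3 ± 1.55 in water, and Tet3 averaged 9.06 ± 0.485 in α-KG and 8.41 ± 0.162 in water (SD, n = 5 each). Tet2, Alkbh1, Fto, Alkbh3 and Alkbh8 followed in α-KG with means of 3.25 to 1.46 CPM per kb, and neighbours in that order had overlapping ranges. In water the order of these genes was Alkbh1, Tet2, Alkbh8, Alkbh3 and Fto, from 2.77 to 1.45 CPM per kb, again with overlapping neighbours. Alkbh2, at 0.785 ± 0.144 in α-KG and 0.636 ± 0.194 in water, and Tet1, at 0.215 ± 0.0261 in α-KG and 0.208 ± 0.0282 in water, were last. The summed exon length of Fto, 13031 bases, is far above its longest transcript of 4707 bases, and with the longest transcript as the length Fto averaged 5.08 CPM per kb in α-KG and 4.0 in water. On that length Tet3 averaged 13.9 CPM per kb in α-KG and 12.9 in water, and Alkbh5 15.7 in α-KG and 17.0 in water. The ranges of Alkbh5 and Tet3 then overlapped in α-KG, at 12.4 to 19.1 and 12.8 to 14.6 CPM per kb, and did not overlap in water. Tet2 averaged 5.97 CPM per kb in α-KG and 4.26 in water, Alkbh1 4.40 in α-KG and 4.73 in water, and Alkbh3 4.02 in α-KG and 4.17 in water.

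**Figure D3:**
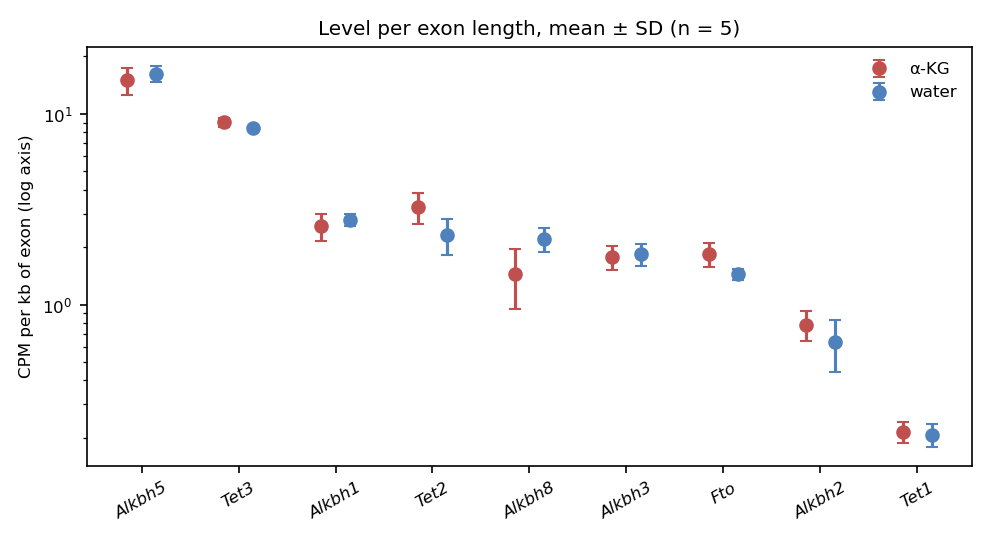
CPM per kb of summed exon length on a log axis, mean ± SD of 5 α-KG (red) and 5 water (blue) libraries, ordered by the water mean. Alkbh5 and Tet3 stand above the other members, and Tet1 is the lowest at 0.215 in α-KG and 0.208 in water.

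Ratios of 2 members within a library do not depend on the scaling between libraries, and 3 pairs were compared. The log2 ratio of Tet2 to Tet3 counts was -1.49 ± 0.34 in α-KG and -1.87 ± 0.29 in water (SD, n = 5 each), a difference of 0.38 (exact two-sided permutation p = 0.103). For Fto over Alkbh5, the other m6A eraser gene, it was -1.91 ± 0.45 in α-KG and -2.37 ± 0.21 in water, a difference of 0.46 (exact permutation p = 0.0714). For Alkbh2 over Alkbh3 it was -2.68 ± 0.27 in α-KG and -3.10 ± 0.40 in water, a difference of 0.42 (exact permutation p = 0.0952). Adjusted over the 3 pairs, each exact p was 0.103, and the smallest p that 5 against 5 libraries allow is 0.00794. The Tet2 to Tet3 difference was 0.50 without water 3 (exact permutation p = 0.0476) and 0.52 without α-KG 2 (exact permutation p = 0.0317), and the Fto to Alkbh5 difference was 0.62 without α-KG 5 (exact permutation p = 0.00794, the smallest possible there), none adjusted. With each library left out in turn, the exact permutation p ran from 0.0317 to 0.190 for Tet2 over Tet3, from 0.00794 to 0.159 for Fto over Alkbh5 and from 0.0714 to 0.198 for Alkbh2 over Alkbh3. As differences of group medians the ratios stood at 0.62, 0.38 and 0.28 (exact permutation p = 0.190, 0.238 and 0.119).

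Levels of monocyte and cell cycle genes are given beside the members because they varied over the same libraries. Of 16 monocyte genes, all tested and none at 0 in all libraries, 11 rose and 0 fell (edgeR) beside 2.39% and 0.344% of all genes tested, and their summed level was 679 to 1382 CPM in α-KG and 493 to 660 CPM in water. Tet2 was lowest in α-KG 2 among the α-KG libraries and highest in water 3 among the water libraries, which were also the lowest α-KG and the highest water library in the monocyte sum. The same was so of the macrophage, T and NK, and stem and progenitor sums, at 153, 35.9 and 62.3 CPM in α-KG 2 and 140, 44.98 and 64.8 CPM in water 3. Other libraries did not keep this order. Tet2 was highest in α-KG 1 (64.6 CPM), where the monocyte sum was 1072 CPM, below 1233 to 1382 CPM in α-KG 3 to 5. Water 1, with Tet2 at 39.0 CPM, had the lowest monocyte sum, 493 CPM. With the mean of the monocyte list as a covariate, the log2 fold change was -0.16 for Tet2, 0.31 for Fto and -0.03 for Alkbh8. On the log2(CPM + 1) scale that mean was 4.551 to 5.625 in α-KG and 4.021 to 4.519 in water, without overlap. The fit can therefore hardly separate the covariate from treatment. In bulk marrow, a change in the number of cells of a type and a change in RNA per cell cannot be told apart.

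Of 24 cell cycle genes, 24 lay below 0 on the log2 scale (median -0.70). At an adjusted p under 0.05 edgeR called 0 of them, beside 2.73% of all genes tested. With edgeR, 24 were at an unadjusted p under 0.05, beside 27.8% of all genes tested. DESeq2 called 17 lower, beside 10.4% of all its genes in either direction. Limma voom with quality weights called 23 lower, beside 2390 of 15126 genes in either direction. Their summed level was 1480 to 4553 CPM in α-KG and 4269 to 5933 CPM in water. Alkbh8 was lowest in α-KG 1 and α-KG 3, the libraries with the lowest cell cycle sums (1480 and 2049 CPM), and highest of the α-KG libraries in α-KG 2, where that sum was 4553 CPM. Tet2 ran opposite to this sum in α-KG. It fell over α-KG 1, 3, 4, 5 and 2 (64.6, 62.3, 56.8, 51.2 and 39.1 CPM). The sum rose in that order, with 3314 and 3781 CPM in α-KG 4 and 5. Water 3, the water library highest in Tet2, had the lowest water sum, 4269 CPM. The other water libraries did not keep this order, with Tet2 at 33.3 CPM in water 2 (sum 5279) and 39.0 in water 1 (sum 5489). With the mean of the cell cycle list as a covariate, the log2 fold change was 0.05 for Alkbh8, 0.04 for Tet2 and 0.12 for Fto. That mean, on the log2(CPM + 1) scale, also overlapped little between groups, at 5.30 to 6.64 in α-KG and 6.45 to 7.01 in water. The erythroid list mean, on the log2(CPM + 1) scale, was lowest in α-KG 1 at 7.73, ran from 9.56 to 10.3 in α-KG 2 to 5, and ran from 9.31 to 10.4 in water. With the protein-coding share of the counts as a covariate, Tet2, Fto and Alkbh8 were at 0.57, 0.34 and -0.66. No member passed in any of these 3 fits, but neither did any other gene, with 0 of 15126 called in each. These fits therefore do not set the members apart, and the part of cell makeup in the members' values was not tested.

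**Figure D4:**
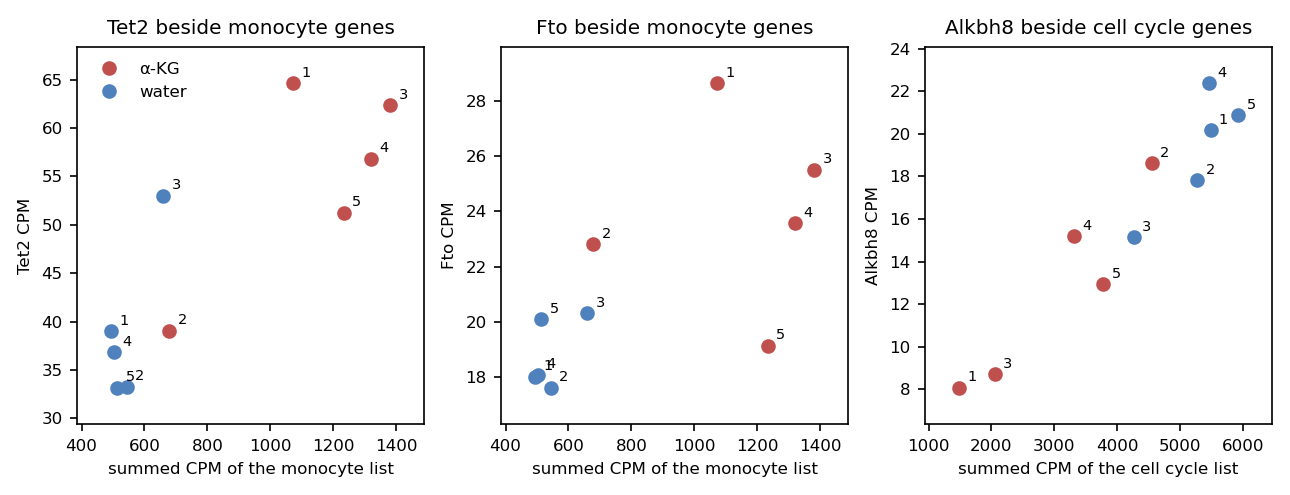
CPM of Tet2 and Fto against the summed CPM of 16 monocyte genes, and of Alkbh8 against that of 24 cell cycle genes, with 1 numbered point for each α-KG (red) and water (blue) library. Water 3 and α-KG 2 have close monocyte sums, 660 and 679 CPM, between the other water and the other α-KG libraries, and Alkbh8 is lowest in α-KG 1 and α-KG 3, at 8.09 and 8.74 CPM.

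The 3 other ALKBH genes, whose known substrates are mainly outside nucleic acids or less settled, gave 0 calls with edgeR, DESeq2 or limma voom. With edgeR, 1 of the 3 was at an unadjusted p under 0.05, beside 27.8% of all genes tested. Alkbh6 stood at 2.56 ± 0.865 CPM in α-KG and 1.64 ± 0.516 in water (SD, n = 5 each; log2 fold change 0.65 ± 0.30 SE, edgeR adjusted p = 0.173). Alkbh7, which encodes a mitochondrial member of the family, was at -0.38 (edgeR adjusted p = 0.241) and Alkbh4 at -0.15 (edgeR adjusted p = 0.558) on the log2 scale.

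Genes that act before or after the TET enzymes gave 0 calls with edgeR in 12 tested of 15 listed. Of the 12, 6 were at an unadjusted p under 0.05, beside 27.8% of all genes tested. Their log2 fold changes lay above 0 for 5 and below for 7, with a median of -0.21. The maintenance methyltransferase gene Dnmt1 and its partner Uhrf1, which copy DNA methylation after replication, were at -0.39 and -0.67 (edgeR adjusted p = 0.157 and 0.101), with Uhrf1 at 111 ± 36.9 CPM in α-KG and 177 ± 35.6 in water (SD, n = 5 each). The de novo methyltransferase genes Dnmt3a and Dnmt3b were at 0.44 and 0.57 (edgeR adjusted p = 0.105 and 0.0928). Smug1, encoding a uracil-DNA glycosylase that also removes 5-hydroxymethyluracil, was the only 1 of the 12 whose groups did not overlap, at 1.33 to 2.24 CPM in α-KG and 0.609 to 1.32 CPM in water (log2 fold change 0.87 ± 0.28 SE, edgeR adjusted p = 0.0852). That is 1 of 12 genes, beside 5.65% of all genes tested. Uhrf1 passed with DESeq2 (adjusted p = 0.0372), and Smug1, Dnmt3b and Uhrf1 passed in limma voom with quality weights (adjusted p = 0.0225, 0.0404 and 0.0267). Tdg, the glycosylase gene that acts on the bases TET enzymes oxidise furthest, was at 0.09 (edgeR adjusted p = 0.642).

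The m6A pathway gave 0 calls with edgeR among 12 writer and 8 tested reader genes, with median log2 fold changes of 0.02 and -0.18. Unadjusted, 4 writers and 2 readers were at p under 0.05 (edgeR), beside 27.8% of all genes tested. Mettl3 and Mettl14, the core of the m6A methyltransferase, were at 0.40 and -0.12 (edgeR adjusted p = 0.390 and 0.602). The adaptor genes Rbm15b and Rbm15 were at -0.35 and -0.53 (edgeR adjusted p = 0.0796 and 0.100), and Rbm15b stood at 42.6 to 55.3 CPM in α-KG and 59.7 to 66.5 CPM in water without overlap. Pcif1, which writes m6Am, was at -0.36 (edgeR adjusted p = 0.112). Rbm15b and Rbm15 passed with DESeq2 (adjusted p = 0.0105 and 0.0378), and with limma voom and quality weights so did Pcif1 (adjusted p = 0.0365, 0.0350 and 0.0317). Among the readers, Ythdc2, a helicase, was at -0.28, Igf2bp3 at 0.80 and Hnrnpc at -0.23 (edgeR adjusted p = 0.124 to 0.259), and Igf2bp1 and Igf2bp2 did not pass the filter. Ythdc2 had groups that did not overlap, at 15.1 to 18.9 CPM in α-KG and 19.2 to 22.4 CPM in water, so groups were apart for 1 writer and 1 reader gene, beside 5.65% of all genes tested.

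Alkylation repair genes gave 0 calls in 13 with edgeR, and their median lay at -0.04 on the log2 scale. The same test put 3 of the 13 at an unadjusted p under 0.05, beside 27.8% of all genes tested. Pcna, the replication clamp with which human ALKBH2 interacts, was at -0.68 with 42.5 to 94.5 CPM in α-KG and 76.2 to 150 CPM in water (edgeR adjusted p = 0.101). It passed with DESeq2 (adjusted p = 0.0434), and Pcna and Mpg passed with library totals only (edgeR adjusted p = 0.0157 and 0.0246) and in limma voom with quality weights (adjusted p = 0.0418 and 0.0362). Library totals only moved the median log2 fold change of all genes to -0.22. It called 1159 genes and voom with quality weights 2390, beside 413 in the main test. Mpg, encoding the alkyladenine glycosylase, was at -0.67, and Apex1, an endonuclease gene of base excision repair, at 0.37 with groups that did not overlap (edgeR adjusted p = 0.120 and 0.177), 1 of 13 genes beside 5.65% of all genes tested. Ascc3, whose human helicase works with ALKBH3, was at -0.22 (edgeR adjusted p = 0.281) and Mgmt, the direct repair methyltransferase gene, at 0.45 (edgeR adjusted p = 0.446). Mgmt was scarce, with means of 0.704 CPM in α-KG and 0.539 in water.

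Among 14 tested genes of tRNA modification, edgeR called 0, and the median log2 fold change was 0.13. Beside 27.8% of all genes tested, 4 of the 14 were at an unadjusted p under 0.05. Ctu1, which thiolates the wobble uridine that ALKBH8 also modifies, had groups that did not overlap, at 2.12 to 3.90 CPM in α-KG and 1.71 to 2.07 CPM in water (log2 fold change 0.65 ± 0.19 SE, edgeR adjusted p = 0.0723). It passed with DESeq2 (adjusted p = 0.0464) and in limma voom with quality weights (adjusted p = 0.0280). Elp4, a gene of the Elongator complex, which starts that modification, was at -0.47 (edgeR adjusted p = 0.110), and its groups did not overlap, which makes 2 of 14 genes beside 5.65% of all genes tested. Trmt112, the partner of human ALKBH8, was at 0.23 (edgeR adjusted p = 0.318). Alkbh8 and Ctu1 lay on opposite sides of 0, each without passing adjustment.

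**Figure D5:**
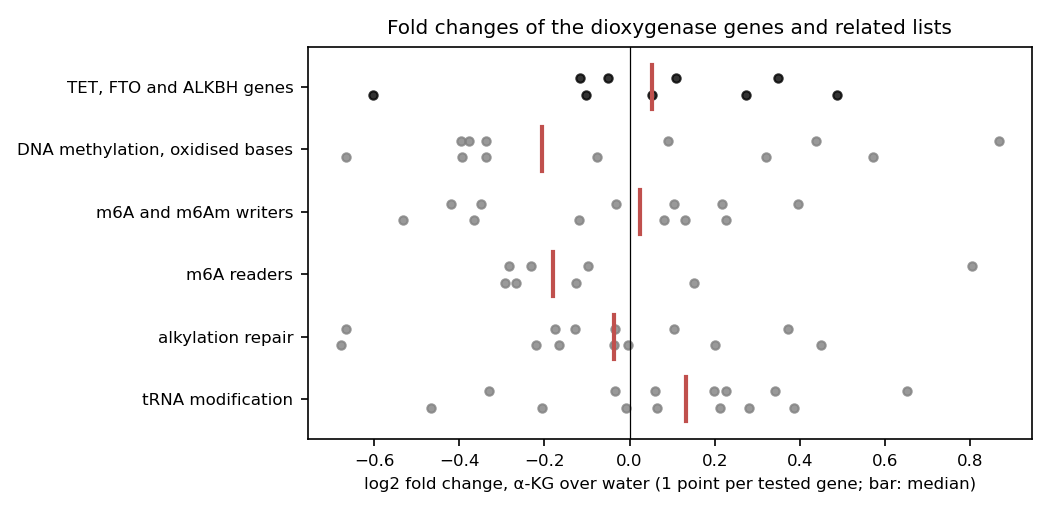
Log2 fold changes of α-KG over water, 1 point per tested gene, for the 9 members (black) and the 5 related lists (grey), with the median of each as a red bar. Medians lie between -0.21 and 0.13, and no gene shown passed adjustment over all genes tested with edgeR.

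The genes most like 4 of the members over the 10 libraries were picked by Pearson's r of log2 CPM among 11332 named genes, so these r are a description with no test. Tet2 was most like Phf21a (r = 0.98, Spearman's rho = 1) and Itpk1 (r = 0.98, rho = 0.94), with 374 genes above 0.9. Fto was most like Ncdn and B3gnt8 (r = 0.97 for each), with 80 genes above 0.9, and Alkbh5 most like Pim1 and Ap4b1 (r = 0.99 for each), with 457. Tet3 had only 2 genes above 0.9, Hmox2 (r = 0.91) and Naa30 (r = 0.91). The points share their libraries, with each library's composition and depth, and the part of these in r was not tested. None of these 8 genes passed the test of α-KG against water with edgeR (adjusted p = 0.0590 to 0.594).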

How the data were processed

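Per the labels' protocols, RNA of mouse marrow cells was depleted of ribosomal RNA by an RNase H method and sequenced on an Illumina instrument. The submitters' processing notes name bcl2fastq, DRAGEN and build GRCm38. Quantifier, annotation and strandedness: not given in the sources used here. In their table the authors deposited expected counts per gene, unscaled between libraries, of which 10.3% were not whole; they were rounded here for testing.

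Genes kept by filterByExpr (minimum count 10, minimum total 15) were tested with edgeR 4.0.16 in R 4.3.3 (TMM, robust quasi-likelihood F test, two-sided, Benjamini-Hochberg over 15126 genes, threshold 0.05); the common biological coefficient of variation was 0.254. SE is the absolute log2 fold change over the square root of F. Ratios used exact two-sided permutation tests. The steps were tested on 3 sets of simulated data, where 5.11% of calls were false. Genes were drawn independently there, so that rate need not hold for the real libraries. Positions, biotypes and exon lengths came from GENCODE M21 (GRCm38), promoters from RefSeq (9 of 9 matched). Alternatives used DESeq2 1.42.0 and limma 3.58.1, other scalings and filters, covariates and each library left out. No paired analysis was possible because the titles carry different numbers in the groups.

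Members and lists were chosen with earlier results of these data known. Named genes are the members, Alkbh4, Alkbh6, Alkbh7, the 3 genes of each related list with the smallest unadjusted p, and the 2 genes most like each of 4 members by r (average log2 CPM at least 0). A result that this rule took is not reported here. The other list genes named were chosen for their role after their values were seen. For the marker lists whose calls are not given above, edgeR gave 6 rises in 14 macrophage and 2 in 18 T and NK genes tested. It gave 1 rise in 11 stem cell and 2 in 10 stromal genes tested. In B cell, neutrophil, granulocyte precursor, erythroid and platelet genes it gave 0 calls. DESeq2 gave 11 macrophage, 6 T and NK, 1 stem cell, 1 B cell and 2 platelet rises. Stromal genes had 2 rises and 2 falls with DESeq2, and neutrophil, granulocyte precursor and erythroid genes 0 calls. Over all genes tested, edgeR called 2.73% and DESeq2 10.4%.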

Additional observations from a re-analysis of the deposited data

Results flagged for a closer look

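Tet3 stood at 145 CPM in water 2, farther from the other water libraries, of which the next stood at 140 CPM, than the spread among them: the gap was 0.822 of the group's range, above the critical value of 0.71 for 5 samples. Chance flags about 1 in 20 groups, and 24 groups of values were examined (the 9 members and 3 ratios in each group).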

How the results depend on the processing

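The count of called members, 0 of 9, stayed at 0 under DESeq2, limma voom, DESeq2 size factors, upper-quartile scaling, no filter, an average CPM of at least 1 (8 members tested, without Alkbh2), protein-coding genes only and each of 3 covariates. It was 1 with library totals only (Alkbh8, -0.88), 3 with voom quality weights (Tet2, Fto and Alkbh8; adjusted p = 0.0285, 0.0450 and 0.0354, limma), and 0 to 2 with 1 library left out. Over 22 alternatives, Tet2, Fto and Alkbh8 ran from -0.16 to 0.63, 0.12 to 0.42 and -0.88 to 0.05, with edgeR, DESeq2 or limma adjusted p of 0.0274 to 1.00, 0.0450 to 1.00 and 0.0245 to 1.00. The count over all genes, 413, was 1159 with library totals only, 1657 with DESeq2, 267 with limma voom, 2390 with voom quality weights, 0 with the monocyte mean, the cell cycle mean or the protein-coding share as a covariate (188, 844 and 3457 at an unadjusted p under 0.05), and 0 to 2683 with 1 library left out (3093 to 5499 at an unadjusted p under 0.05).

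The sign changed for Tet1 (-0.18) and Tet3 (-0.12) with library totals only, a scaling that moved the median of all genes to -0.22; for Alkbh3 with upper-quartile scaling (0.012) and without water 3 (0.016); and for Tet1 without water 2 (-0.029) and without α-KG 1 (-0.015). With the monocyte mean as a covariate it changed for Tet2 (-0.16), Alkbh1 (0.069), Alkbh2 (-0.18), Uhrf1 (0.11) and Igf2bp3 (-0.046), and with the cell cycle mean for Tet1 (-0.081), Alkbh2 (-0.13), Alkbh5 (0.16), Alkbh8 (0.049), Pcna (0.026) and Mpg (0.091); the cause was not tested. With 1 library left out, the ratio differences ran from 0.32 to 0.52 (Tet2 over Tet3), 0.31 to 0.62 (Fto over Alkbh5) and 0.29 to 0.51 (Alkbh2 over Alkbh3). Alkbh2 had 7 to 27.67 and Tet1 34 to 112 deposited counts per library, which limits their precision. The same limit holds for Igf2bp3, Mgmt and Smug1, with at most 31.66, 22 and 40 deposited counts in a library.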
